A study of Mus musculus with 24 samples.

Results

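The livers of 6 male p16-3MR mice were compared, 3 treated with ganciclovir (GCV; livers S30, S32 and S34) and 3 with vehicle (VEH; livers S24, S25 and S26). They were chosen by genotype, sex and treatment in the sample labels and are 6 of the 24 liver libraries of the study, which also holds 6 female p16-3MR livers and 12 wild-type livers. All 6 males carried the p16-3MR transgene, were first injected at 16 to 18 months of age and belonged to batch 1. In each month they received intraperitoneal injections on 5 consecutive days, of GCV at 150 mg/kg according to the labels or of the water at pH 11 in which it was dissolved. The methods of the study name another dose, so the dose is uncertain, and the age at which these livers were taken is not in the labels. The transgene sits on a bacterial artificial chromosome and is driven from its p16Ink4a locus. It encodes the thymidine kinase of herpes simplex virus, which makes GCV toxic to the cell that holds it, so the drug is aimed at any cell in which that locus is active and not at 1 cell type. The vehicle mice carry the same transgene. Each liver was 1 mouse and 1 library, made with Smart-3SEQ, which reads the 3′ ends of transcripts.

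Total counts were 5211559 to 6135845 per male liver, on 16962 to 18659 of the 21755 genes listed. The limit that 3 counts set was 0.293 to 0.576 CPM (counts scaled to library size), which covers counting error only. TMM factors, which rescale libraries so that most genes have like values, were 1.80 in S32 and 1.64 in S24 and 0.931 to 1.19 in the other 4. Mitochondrially encoded genes took 12.3% of the counts in S32, 12.5% in S24, 15.7% in S30 and 20.2 to 21.9% in S34, S25 and S26. The defining hepatocyte gene Alb, which encodes serum albumin, was at 20498 to 68500 CPM in all 6, and pancreatic acinar markers summed to 7.89 to 25.8 CPM. Values below are CPM on TMM-scaled library sizes, in the order S30, S32, S34 after GCV and S24, S25, S26 after VEH.

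The liver is mostly hepatocytes, which make plasma proteins, lipids, bile acids and urea. Kupffer cells are its resident macrophages, stellate cells make collagen, and sinusoidal endothelial cells line its capillaries. During inflammation, cytokines such as interleukin 6 drive hepatocytes to make acute-phase proteins. The male pattern of hepatocyte genes is set by the pulsed release of growth hormone, which acts through STAT5B, and more continuous growth hormone gives the female pattern. In a bulk liver sample, fewer cells of a type and less RNA per cell cannot be told apart.

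The comparison of GCV with VEH asks which liver genes differ after drug treatment in old males that carry the transgene. Between the 2 groups of 3, the quasi-likelihood test of edgeR, adjusted by the Benjamini-Hochberg method, called 0 of 21755 genes (0%) at an adjusted p under 0.05, and the smallest adjusted p was 1. At an unadjusted p under 0.05, 239 genes (1.1%) were higher and 177 (0.814%) were lower after GCV, and no gene named below passed the adjusted test of edgeR in the 6 males. These numbers moved with single livers, to 1370 higher and 318 lower without S24, 474 and 442 without S34, 110 and 132 without S25, and 95 and 103 without S26. In 777 genes (3.57%) all 3 GCV livers lay above all 3 VEH livers, and in 616 (2.83%) all 3 lay below. These shares were 2.03% and 3.48% when total counts replaced TMM, so the balance of higher and lower genes depends on the scaling. DESeq2 on the same livers called 5 genes, which include Slc22a26, Gstp2 and Ugt1a10.

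Slc22a26 and Gstp2 were the named genes with the lowest p in each direction. Slc22a26 (chromosome 19, 7781041 to 7802667, minus strand, GRCm38) encodes a member of the organic anion transporter family. It was at 53.5, 4.39 and 28.6 CPM after GCV and at 2.22, 2.50 and 1.56 CPM after VEH. The GCV livers lay above the VEH livers, with S32 the lowest of them, and the difference was 13.7-fold (log2 3.77 ± 0.73 SE, unadjusted p = 0.000154). DESeq2's adjusted p was 0.00102. Female p16-3MR livers held 69.5 to 206 CPM of Slc22a26 under either treatment, so no male liver reached the female range.

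Gstp2 (chromosome 19, 4040285 to 4046023, minus strand, GRCm38), a glutathione S-transferase of the pi class, was at 8.74, 2.54 and 4.80 CPM after GCV and at 146, 353 and 134 CPM after VEH. It was lower in every GCV liver, by 39.4-fold (log2 -5.30 ± 1.16 SE, unadjusted p = 0.00045, adjusted p = 0.00236 with DESeq2). Its near-identical neighbour Gstp1 was at 155, 115 and 408 CPM and at 133, 313 and 293 CPM, with groups that overlap. Reads of the pair can be split between them by the estimation, so the Gstp2 values are uncertain. Ugt1a10, the remaining named gene that DESeq2 called, had counts in S26 alone.

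The livers S32 (GCV) and S24 (VEH) were set apart by their measured immune and matrix expression, so their high genes are given as a description. Of 11710 genes with symbols and a mean of at least 10 counts, 2797 (23.9%) were higher in both S32 and S24 than in each of the other 4 males, 277 of them by more than 2-fold, and 3042 were lower in both. With total counts in place of TMM these numbers were 6468 and 767, so the balance of these directions rests on the scaling. S32 held the highest value of the 6 males in 3672 genes and the lowest in 3686, and S24 the highest in 1055. Across 11854 genes, Spearman's rho between livers was 0.960 for S25 with S26 and 0.945 for S34 with S25, but 0.604 for S32 with S34. Liver S24 was closest to S30 (rho 0.934), a liver of the other arm. These correlations are across genes, which are not independent.

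**Figure D1:**
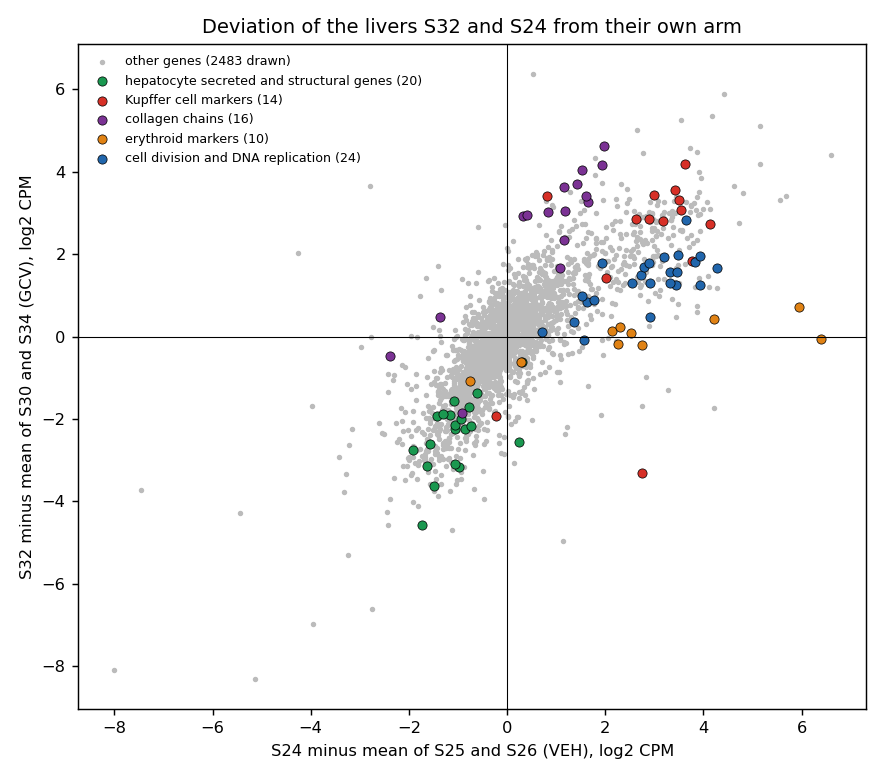
Each point is 1 gene, with the log2 CPM of S24 minus the mean of S25 and S26 on the x axis and of S32 minus the mean of S30 and S34 on the y axis. All list genes with enough counts are coloured and 2483 other genes, drawn at random, are grey. Hepatocyte genes lie mostly at the lower left, Kupffer and cell division genes at the upper right, and collagen chains lie farther up than to the right.

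Both livers carried less of the hepatocyte program. The 20 hepatocyte markers summed to 132283, 44777 and 137008 CPM after GCV and to 66280, 121167 and 127800 CPM after VEH, and 17 of 20 were lower in S32 and S24 than in all other males (11 of 20 with total counts), against 26% of all genes with TMM and 6.55% with total counts. All 23 genes of cholesterol synthesis and all 23 of the urea cycle and amino acid catabolism were below the other 4 livers in both (12 and 19 with total counts). Ttr, which encodes the thyroxine carrier transthyretin, was at 1751, 436 and 3991 CPM and at 1048, 3131 and 3102 CPM. Fasn, the fatty acid synthase, was at 245, 36.7 and 1056 CPM and at 264, 1176 and 688 CPM. For Ttr and Fasn S32 was lowest, and S24 and S30 lay between it and the other 3 livers, whereas in the hepatocyte sum S30 lay with those 3.

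Kupffer cell markers showed the reverse order. The 14 markers summed to 1765, 5632 and 486 CPM after GCV and to 3224, 692 and 439 CPM after VEH, and 12 of 14 were higher in both S32 and S24 under either scaling, against 23.9% of all genes with TMM and 55.2% with total counts. Clec4f, a lectin specific to Kupffer cells, was at 431, 1205 and 63.2 CPM and at 618, 108 and 63.3 CPM. The members that did not follow were the complement gene C6, which hepatocytes also make, and Marco. Marco, a scavenger receptor of macrophages, was lowest in S32 (3.12 CPM) and highest in S24 (234 CPM). Cd207, a lectin of tissue macrophages and Langerhans cells, led the genes shared by both livers, at 124 CPM in S32 and 54.7 CPM in S24 against 1.72 to 4.29 CPM in the other 4.

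Monocyte, T cell and cell division genes summed highest in S30, S32 and S24. Monocyte and recruited macrophage markers summed to 1573, 2266 and 959.7 CPM after GCV and to 1496, 783 and 702 CPM after VEH. T cell and cytotoxic lymphocyte markers summed to 87.8, 172 and 37.7 CPM after GCV and to 195, 17.9 and 9.53 CPM after VEH. Cell division and DNA replication genes summed to 496, 582 and 150 CPM and to 622, 142 and 76.7 CPM. Of these 31 genes, 21 were above the other 4 livers in both S32 and S24 (28 with total counts). The shares of all genes were 23.9% with TMM and 55.2% with total counts. Mki67, a marker of cycling cells, was highest in S30, at 157 CPM, with 107 CPM in S32, 141 CPM in S24 and 5.16 to 9.46 CPM in the remaining 3. Erythroid markers were also highest in S30, with sums of 1766, 812 and 375 CPM and of 1445, 403 and 289 CPM, and 9 of 10 peaked there. Liver S30 stood between S24 and the 3 livers S34, S25 and S26 in the Kupffer and T cell sums, and above both singled-out livers in the erythroid sum.

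**Figure D2:**
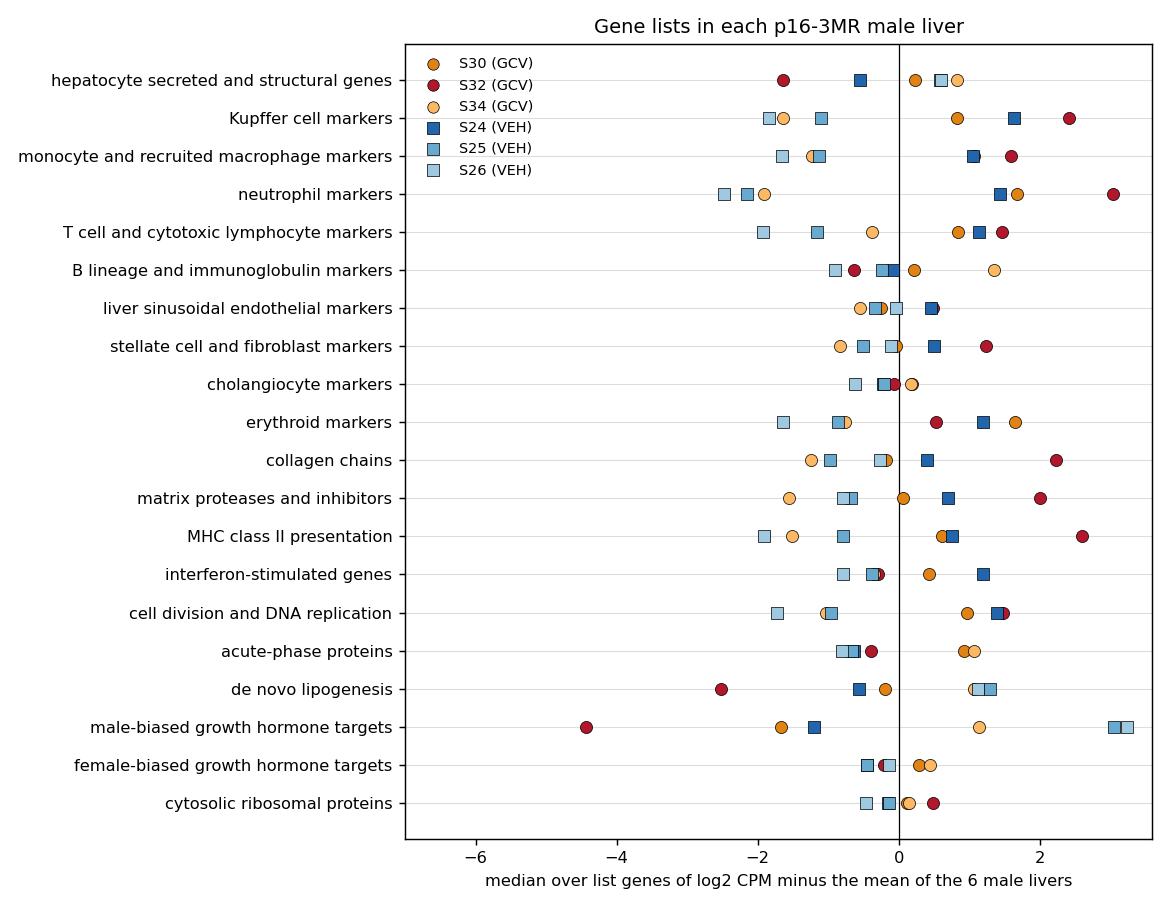
Median over the genes of each list of log2 CPM minus the mean of the 6 male livers (x axis), for 20 lists, with circles for GCV and squares for VEH livers. S32 and S24 lie together at the right for Kupffer, T cell and cell division genes and at the left for hepatocyte genes, while acute-phase genes place S30 and S34 to the right of the other 4.

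Liver S32 exceeded S24 in the level of matrix genes. Collagen chains summed to 691, 2048 and 668 CPM after GCV and to 762, 763 and 924 CPM after VEH, so that in the sum S24 lay within the rest. By gene, however, 10 of the 17 chains, and 17 of 24 matrix proteins and crosslinkers, were higher in both S32 and S24 than in the other 4 males (13 and 18 with total counts), against 23.9% of all genes with TMM and 55.2% with total counts, so the excess depends on the scaling. The median chain deviated from its mean over the 6 males by log2 2.23 in S32 and 0.40 in S24, against -1.24 to -0.17 in the other 4, so S24 was second in this measure. Col1a1, the main chain of fibrillar collagen, was at 25.8, 356 and 7.68 CPM and at 24.7, 3.75 and 9.85 CPM. Mmp9, a gelatinase that neutrophils and macrophages release, was at 12, 261 and 0.384 CPM and at 7.47, 0.893 and 0.625 CPM. The macrophage elastase Mmp12 was at 194 CPM in S32 and 0.576 to 20.9 CPM in the other 5. Antigen presentation by MHC class II followed the same liver, with a summed level of 3812 CPM in S32, 1142 CPM in S24 and 142 to 811 CPM elsewhere. Other genes that stood highest in S32 relative to any other male were P2rx7, an ATP-gated channel of macrophages, at 130 CPM, and Cd93, at 161 CPM.

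The difference between treatments in these lists moved with S32. The 17 collagen chains had a median log2 difference of 1.16 over the 6 males, -0.61 without S32 and -0.08 without S32 and S24. Of the 24 matrix proteases and inhibitors, 6 were higher at an unadjusted p under 0.05 in the 6 males (Timp1, Mmp9, Mmp7, Mmp3, Mmp12 and Adam12), against 1.1% of all genes, and the list's median was 1.39 (-0.43 without S32). Without both livers 4 were, against 2.65% of all genes, with a median of 1.37. Without S30 as well, which leaves S34 alone after GCV, the median was -0.46. Col1a1 differed by log2 3.33 ± 1.09 SE (unadjusted p = 0.00865) with all livers and by 1.30 ± 0.65 SE (unadjusted p = 0.0625) without S32 and S24. Its log2 difference was 0.12 with S30 also left out.

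Liver S24 stood out from all other males in interferon-stimulated genes. Of 39 such genes, 30 were highest in S24 and 4 in S32, against 1055 and 3672 of 11710 genes. Irf7, the transcription factor that amplifies type I interferon, was at 97.1, 58.6 and 50.1 CPM after GCV and at 252, 50.7 and 38.4 CPM after VEH. Mx1, an antiviral GTPase, was at 15.1 CPM in S24 and 0.469 to 3.52 CPM elsewhere. The cytotoxic granule gene Gzma was at 13.8 CPM in S24 and 0 to 2.83 CPM in the others, and Selenbp2, a liver selenium-binding protein, was at 150 CPM against 8.84 to 37.9 CPM. None of the 39 interferon-stimulated genes had an unadjusted p under 0.05 between treatments in the 6 males, against 1.1% of all genes higher and 0.814% lower, and the list's median log2 difference was -0.22. Without S32 and S24 the median was 0.71, 35 of 39 genes had a difference above 0, and 2, Irf1 and Zbp1, were higher at that p, against 2.65% of all genes. With S30 also left out, which leaves S34 alone after GCV, the median was 0.13.

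When S32 and S24 were both removed, 2 livers remained in each arm, with the spread shared with the 6 female livers, and edgeR called 4 of 21755 genes (0.0184%). Slc22a26 was higher, at log2 4.33 ± 0.62 SE, a 20.2-fold difference (edgeR adjusted p = 0.0216). Hsd3b5, a male-specific hydroxysteroid dehydrogenase, was lower, at log2 -6.75 ± 0.91 SE (edgeR adjusted p = 0.0216). The other 2 were gene models without a full name, both lower. S30 was the liver nearest to S24 among those kept. Without S30 as well, S34 alone was left after GCV, and the log2 difference of Slc22a26 was 3.77. The removal rests on expression measured in the same libraries, so these calls describe the 4 livers left. The number of calls depended on the method, at 15 with DESeq2, 16 with total counts, 0 with filterByExpr and 608 with the 4 males fitted alone.

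At an unadjusted p under 0.05, 576 genes (2.65%) were higher and 199 (0.915%) were lower among those 4 livers. Leaving out a further liver leaves an arm with a single liver, so such fits are given by log2 differences only. Of the 416 genes at that p in the 6 males, 201 also reached it in the same direction among the 4 livers, which is 48.3% of the first list and 25.9% of the second. The higher side now held immune and proliferation genes. Of 31 cell division genes 13 were higher, of 24 T cell markers 10, of 18 monocyte markers 9, of 14 neutrophil markers 7, of 14 Kupffer markers 6 and of 10 erythroid markers 4. In the same order of lists, the median log2 differences among the 4 livers were 2.21, 2.30, 1.75, 4.94, 1.58 and 2.01. With S30 also left out, which leaves S34 alone after GCV, they were 0.23, 0.94, 0.28, 0.44, -0.13 and 0.41.

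A part of the acute-phase genes was higher in every GCV liver than in every VEH liver, but their summed level was not. The sum was 48521, 16197 and 63604 CPM after GCV and 18185, 26509 and 27344 CPM after VEH, so S32 was the lowest of the 6 and S30 and S34 the highest. Of 26 listed, 10 were higher in all 3 GCV livers than in all 3 VEH livers (11 with total counts) and none lower, against 3.57% and 2.83% of all genes (2.03% and 3.48% with total counts). At an unadjusted p under 0.05, 6 were higher in the 6 males (1.1% of all genes) and 8 without S32 and S24 (2.65%). The median log2 difference was 1.16 and 1.45 in the same order, against 0.04 for all genes in the 6 males. With S30 also left out, which leaves S34 alone after GCV, it was 1.49. The list was written with earlier results of these data known.

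The 250 bases before the annotated start are shown for 6 of the 10 members of this group whose arms did not overlap. They are given on the gene's strand, from RefSeq on GRCm38.p6, and are only a part of the regulatory sequence of the genes described next. The Mt1 window ends at 94179088, past the GENCODE start of that gene at 94179082, and bases farther along were not searched. Capitals in the 2 metallothionein genes mark the letters TGCNCNC, a looser form of the core of the element that the metal sensor MTF1 recognises. In Orm2, Orm3 and Lcn2 they mark TTNNGNAA, letters of the element that C/EBP factors recognise, and there are none in Apcs. All were searched on both strands. The windows lie at chr8:94172368-94172617 (Mt2, plus strand), chr8:94178839-94179088 (Mt1, plus strand), chr4:63362199-63362448 (Orm2, plus strand), chr4:63355908-63356157 (Orm3, plus strand), chr2:32387740-32387989 (Lcn2, minus strand) and chr1:172895055-172895304 (Apcs, minus strand).
Mt2: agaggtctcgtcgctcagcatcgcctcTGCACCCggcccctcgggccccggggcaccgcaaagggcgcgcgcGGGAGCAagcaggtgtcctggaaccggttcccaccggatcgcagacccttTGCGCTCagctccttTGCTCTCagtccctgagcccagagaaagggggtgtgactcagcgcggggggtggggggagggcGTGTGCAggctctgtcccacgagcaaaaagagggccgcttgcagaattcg
Mt1: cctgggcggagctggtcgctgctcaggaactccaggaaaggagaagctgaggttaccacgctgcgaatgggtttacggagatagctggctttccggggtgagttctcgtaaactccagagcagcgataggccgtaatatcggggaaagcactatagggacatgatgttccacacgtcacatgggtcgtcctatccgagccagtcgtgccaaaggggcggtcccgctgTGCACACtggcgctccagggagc
Orm2: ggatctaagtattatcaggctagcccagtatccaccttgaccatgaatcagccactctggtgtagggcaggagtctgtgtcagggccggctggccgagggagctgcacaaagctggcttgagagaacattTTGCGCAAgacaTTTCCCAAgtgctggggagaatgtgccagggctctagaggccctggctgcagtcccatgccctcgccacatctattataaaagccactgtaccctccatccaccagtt
Orm3: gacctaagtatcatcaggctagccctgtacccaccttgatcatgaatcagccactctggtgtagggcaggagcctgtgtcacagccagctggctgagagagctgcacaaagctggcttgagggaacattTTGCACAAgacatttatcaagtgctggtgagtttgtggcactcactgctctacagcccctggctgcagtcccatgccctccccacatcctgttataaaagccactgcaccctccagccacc
Lcn2: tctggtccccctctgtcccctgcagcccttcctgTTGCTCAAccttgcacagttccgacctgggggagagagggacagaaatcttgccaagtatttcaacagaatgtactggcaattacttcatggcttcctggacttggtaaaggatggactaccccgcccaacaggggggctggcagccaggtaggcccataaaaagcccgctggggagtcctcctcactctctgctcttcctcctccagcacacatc
Apcs: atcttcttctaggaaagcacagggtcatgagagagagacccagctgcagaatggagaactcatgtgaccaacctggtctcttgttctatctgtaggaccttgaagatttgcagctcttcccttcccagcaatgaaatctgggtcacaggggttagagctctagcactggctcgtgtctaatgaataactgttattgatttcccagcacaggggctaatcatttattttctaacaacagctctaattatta
The Mt2 window holds 5 matches of TGCNCNC, the Orm3 window 2 and the Mt1 and Orm2 windows 1 each, the Lcn2 and Apcs windows hold 0, and 44.4% of 32851 such windows hold at least 1. The Orm2 window holds 3 matches of TTNNGNAA, 2 of which are the same bases read on each strand, the Orm3, Lcn2 and Mt2 windows hold 1 each and the Mt1 and Apcs windows 0, and 36.8% of all windows hold at least 1. The letters TTCNNNGAA of a STAT site, present in 7.02% of windows, are in the Apcs window once and in none of the other 5. The windows of the remaining members without overlap, Cp, Saa3, Serpina3n and Steap4, were not searched. Bases outside the windows were not searched, so the matches are not a count for a whole promoter, and a match of letters is not a measured site.

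Mt1 and Mt2 encode metallothioneins, small proteins that bind zinc and copper. Mt1 was at 211, 196 and 95.5 CPM after GCV and at 41.2, 4.64 and 2.66 CPM after VEH. Mt2 was at 127, 132 and 94.9 CPM and at 16.3, 2.50 and 1.72 CPM. In both, all GCV livers lay above all VEH livers and S24 was the highest VEH liver. The difference was 10.3-fold for Mt1 (log2 3.36 ± 1.21 SE, unadjusted p = 0.0149) and 17.0-fold for Mt2 (log2 4.09 ± 1.45 SE, unadjusted p = 0.0139). Without S32 and S24 it was 42.0-fold (unadjusted p = 0.000753, adjusted p = 0.994) and 52.1-fold (unadjusted p = 0.00398, adjusted p = 0.994).

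Orm1, Orm2 and Orm3 encode orosomucoids, plasma proteins that carry drugs and lipids. Orm2 was at 942, 487 and 3248 CPM after GCV and at 138, 116 and 68.8 CPM after VEH, a 14.5-fold difference without overlap (log2 3.86 ± 1.40 SE, unadjusted p = 0.0157). Orm3 was at 15.8, 9.07 and 47.1 CPM and at 3.27, 0.714 and 0.781 CPM (log2 3.84 ± 1.17 SE, unadjusted p = 0.00553). In both genes S34 was the highest liver and S32 the lowest of the GCV arm. Orm1, the most abundant, was at 2187, 832 and 4436 CPM and at 562, 942 and 662 CPM, so S32 fell within the VEH range (unadjusted p = 0.0853). The 3 genes are near copies, and reads may be split among them.

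Lcn2, lipocalin 2, binds bacterial siderophores and is made by inflamed hepatocytes and by neutrophils. It was at 339, 693 and 513 CPM after GCV and at 134, 11.4 and 7.03 CPM after VEH (log2 3.33 ± 1.54 SE, unadjusted p = 0.0483). Neutrophil gene S100a9 was at 77.5, 227 and 4.99 CPM and at 77.1, 3.39 and 2.03 CPM, so in S34 Lcn2 was high where S100a9 was low. The 14 neutrophil markers, Lcn2 among them, summed to 560, 1548 and 525 CPM and to 352, 24.6 and 14.7 CPM. In S34 Lcn2 itself made up 513 of the 525 CPM, so this sum does not show the other markers. Lcn2 was the only 1 of the 14 whose arms did not overlap. The part of neutrophils in the Lcn2 level was not tested in any liver.

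Apcs, serum amyloid P, a pentraxin, was at 519, 157 and 421 CPM after GCV and within 85.5 to 88.1 CPM in the VEH livers (log2 2.08 ± 0.74 SE, unadjusted p = 0.0137). The serum amyloid A genes had a wider spread. Saa1 was at 249, 53.6 and 1834 CPM and at 45.4, 66.6 and 21.1 CPM, and Saa2 reached 4363 CPM in S34 against 18.8 to 305 CPM in the other 5. Both overlapped between arms, with an unadjusted p of 0.071 and 0.062. Haptoglobin Hp (3881, 1676 and 4480 CPM against 1833, 1128 and 1117 CPM) and hemopexin Hpx (5980, 2097 and 5868 CPM against 2730, 1839 and 1631 CPM), which scavenge free hemoglobin and heme, were high in S30 and S34 and in the VEH range in S32. S32, the liver with the lowest hepatocyte sum, had the lowest level of the GCV arm in Orm1, Orm2, Orm3, Apcs, Hp and Hpx.

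**Figure D3:**
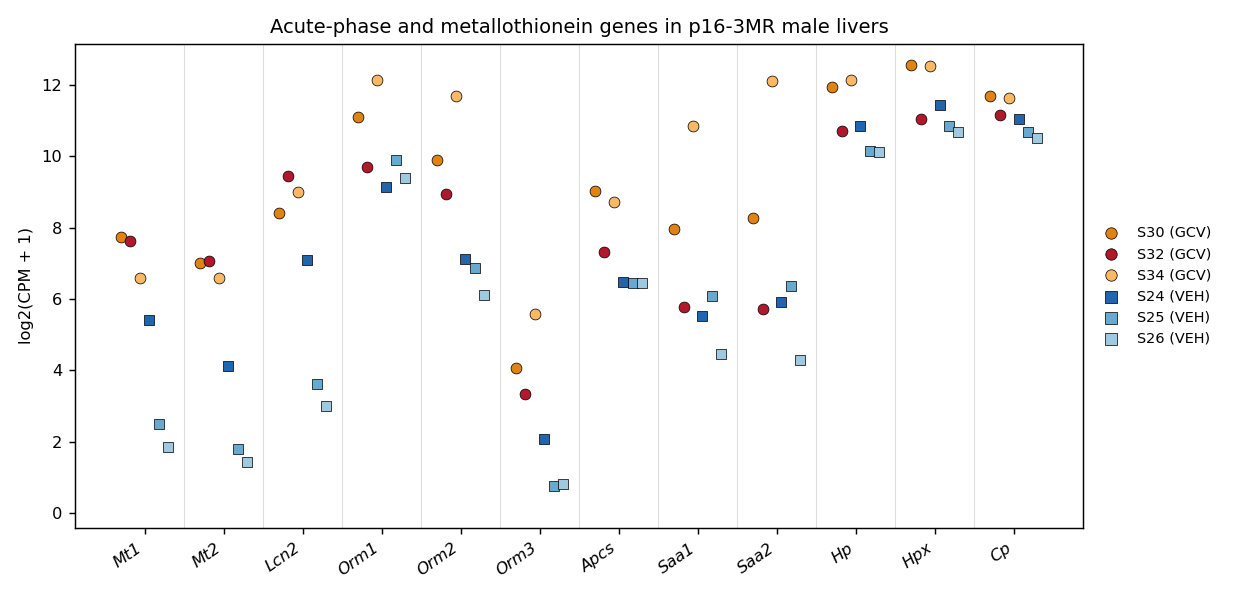
Level of 12 acute-phase and metallothionein genes as log2(CPM + 1) in each male liver, with circles for GCV and squares for VEH. The GCV livers lie above all VEH livers for Mt1, Mt2, Lcn2, Orm2, Orm3, Apcs and Cp (Cp not with total counts), and S34 holds the highest Saa1 and Saa2.

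A part of the genes with a male pattern set by growth hormone was lower in the GCV arm at an unadjusted p under 0.05, and their summed level was low in S24 too. The 39 listed genes in the table summed to 4897, 1347 and 30046 CPM after GCV and to 5060, 33462 and 32571 CPM after VEH. At an unadjusted p under 0.05, 9 were lower and 0 higher in the 6 males, against 0.814% lower of all genes, and 10 lower and 0 higher without S32 and S24, against 0.915%. The list's median log2 difference was -1.03 in the 6 males and -0.81 without S32 and S24. With S30 also left out, which leaves S34 alone after GCV, it was -0.37. Without overlap between arms were 2 of 39, Stat5b and Mup20, and 4 with total counts, against 2.83% of all genes with TMM and 3.48% with total counts. In summed level S34 was near S25 and S26, and S30, S32 and S24 were low.

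Single genes of this group separated S25 and S26 from all other males. Hsd3b5 was at 0, 0 and 1.92 CPM after GCV and at 0, 61.1 and 127 CPM after VEH. Slco1a1, a transporter of bile acids and steroid conjugates, was at 7.75, 0.195 and 35.2 CPM and at 14.8, 237 and 348 CPM (log2 -3.81 ± 1.29 SE, unadjusted p = 0.0105). Elovl3, a fatty acid elongase, was at 0.705, 0 and 16.7 CPM and at 2.22, 251 and 181 CPM (log2 -4.69 ± 1.64 SE, unadjusted p = 0.013). In these 3 genes S34 held more than S30 and S32 but less than S25 and S26, and S24 lay among the GCV livers.

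The cytochrome P450 genes Cyp4a12a and Cyp2d9 had the same order of livers. Cyp4a12a was at 2.96, 0 and 32.7 CPM after GCV and at 9.45, 202 and 168 CPM after VEH (log2 -3.44 ± 1.33 SE, unadjusted p = 0.0216). Cyp2d9 was at 32, 20.4 and 153 CPM and at 69.2, 337 and 334 CPM (log2 -1.85 ± 0.76 SE, unadjusted p = 0.0298). Mup20, which encodes the urinary pheromone darcin, was at 460, 61.3 and 2356 CPM and at 2739, 11522 and 6501 CPM, a 7.22-fold lower level without overlap (unadjusted p = 0.0174). Stat5b itself was at 19.6, 13.6 and 20.9 CPM and at 24.4, 32.7 and 34.4 CPM, 1.69-fold lower without overlap (unadjusted p = 0.0285). The growth hormone receptor gene Ghr overlapped between arms, at 151, 28.8 and 263 CPM and at 95.6, 281 and 363 CPM (unadjusted p = 0.297).

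Of 20 genes with a female pattern, 4 were higher at an unadjusted p under 0.05 after GCV in the 6 males, among them Prom1, Cux2 and Nipal1, against 1.1% of all genes, and 1, Cyp4a14, was lower, against 0.814%. Prom1, the progenitor surface protein CD133, was at 3.80, 4.78 and 5.76 CPM after GCV and at 1.28, 1.07 and 0.313 CPM after VEH, with no overlap (log2 2.38 ± 0.76 SE, unadjusted p = 0.00771). Cux2, a female-specific transcriptional repressor, was at 11, 0.878 and 0.960 CPM and at 1.75, 0 and 0 CPM, so its level came mostly from S30. Its level in S34 was within 2-fold of the limit of 0.576 CPM in that liver.

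**Figure D4:**
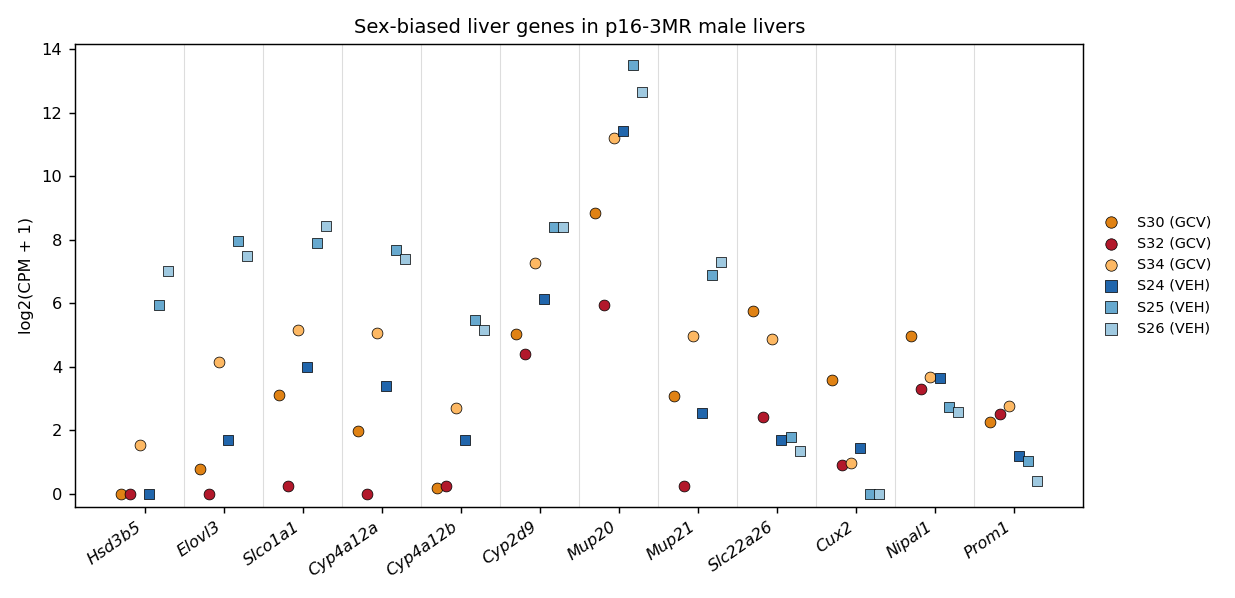
Level of 8 male-biased genes (Hsd3b5 to Mup21), of Slc22a26 and of 3 female-biased genes (Cux2, Nipal1 and Prom1) as log2(CPM + 1) in each male liver. VEH livers S25 and S26 hold the highest values of the male-biased genes, S24 lies below both, and the GCV livers hold more Slc22a26 and Prom1 than any VEH liver.

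Targets of PPARalpha, the receptor that senses fatty acids and turns on their oxidation, followed the same division. Of 28 genes, 4 were lower at an unadjusted p under 0.05 (Pdk4, Cyp4a14, Cyp4a12a and Cyp4a10) and 0 higher, against 0.814% lower of all genes. Without S32 and S24 5 were lower, against 0.915%, and 3 with S30 also left out, against 0.86%. None was apart between arms with TMM and 7 were lower without overlap with total counts, against 3.48% of all genes. Pdk4, which limits glucose oxidation, was at 8.03, 3.51 and 8.45 CPM after GCV and at 7.58, 29.3 and 23.6 CPM after VEH (log2 -1.60 ± 0.62 SE, unadjusted p = 0.0216). Cyp4a10 was at 5.21, 0.878 and 13.6 CPM and at 2.92, 57.3 and 86.3 CPM (log2 -2.91 ± 1.18 SE, unadjusted p = 0.0274). S24 lay within the GCV range for both.

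The lower genes with the lowest p and no overlap included regulators of signalling and autophagy. Rgs16, which ends signalling by G proteins in hepatocytes and varies with feeding, was at 7.33, 4.29 and 11.3 CPM after GCV and at 40.6, 25.9 and 88.8 CPM after VEH (log2 -2.77 ± 0.64 SE, unadjusted p = 0.000715). Ulk1, the kinase that starts autophagy, was at 19.6, 14.8 and 21.3 CPM and at 32.3, 31.8 and 53 CPM (log2 -1.07 ± 0.33 SE, unadjusted p = 0.00618). Ern1, the stress sensor IRE1 of the endoplasmic reticulum, was at 23.5, 17.5 and 25 CPM and at 35.2, 30.5 and 64.7 CPM (log2 -0.99 ± 0.34 SE, unadjusted p = 0.0123). In these 3 genes S24 lay with the other VEH livers. Smad9, Lonrf3, Rassf8, Zbtb11 (not with total counts) and the lipid droplet gene Cidec had the same separation, with log2 differences of -3.10 to -1.24. Cidec was under 1 CPM in each GCV liver.

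The higher genes named by the same rule were Tgm1, Gpat3, Cdpf1, Hps6, Jaml, Ocstamp and Timp1 (the last 2 not apart with total counts), beside Slc22a26, Prom1 and acute-phase members. Tgm1, a transglutaminase, was at 15.5, 12.3 and 21.9 CPM after GCV and at 8.64, 4.29 and 8.60 CPM after VEH (log2 1.20 ± 0.40 SE, unadjusted p = 0.0106). Gpat3, which makes glycerolipids, was at 2.96, 2.34 and 3.84 CPM and at 1.40, 0.893 and 0.781 CPM (log2 1.53 ± 0.50 SE, unadjusted p = 0.00915). Dnajc12, a co-chaperone of the aromatic amino acid hydroxylases, was at 71.9, 12.5 and 33.4 CPM and at 11.1, 9.29 and 7.81 CPM (log2 2.06 ± 0.78 SE, unadjusted p = 0.0198). The GCV livers were above the VEH livers in each, by a narrow margin for S32 in Dnajc12. Timp1, an inhibitor of matrix proteases, was above 1 CPM only in S32 (8.10 CPM).

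Genes for cytosolic ribosomal proteins differed together by a small amount that depended on the scaling. Of 70 genes, 45 were higher in all GCV livers than in all VEH livers with TMM, against 3.57% of all genes, but 4 with total counts, against 2.03%. The median log2 difference was 0.49 in the 6 males and 0.39 without S32 and S24. At an unadjusted p under 0.05, 5 were higher in the 6 males (Fau, Rpl32, Rps7, Rps28 and Rpl39), against 1.1% of all genes. Without S32 and S24 0 were, against 2.65%. Rpl39 was at 476, 1009 and 457 CPM after GCV and at 398, 323 and 223 CPM after VEH. S32 was the highest liver in 59 of the 70 genes, against 3672 of 11710 genes.

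**Figure D5:**
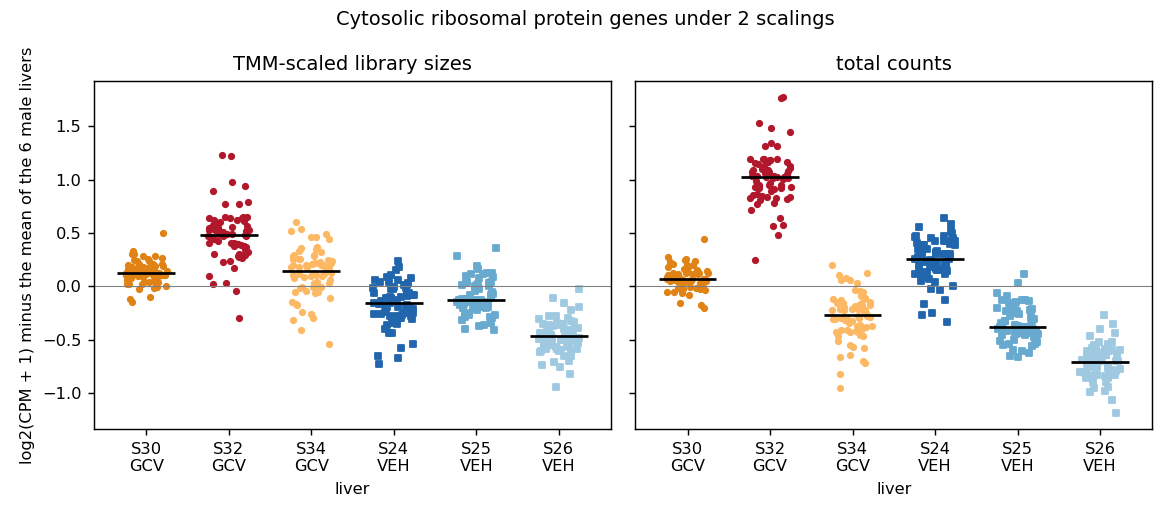
Each point is 1 of 70 ribosomal protein genes, as log2(CPM + 1) minus its mean over the 6 male livers, with library sizes scaled by TMM (left) and by total counts (right). Bars are medians, which are 0.13, 0.48 and 0.14 after GCV and -0.16, -0.13 and -0.47 after VEH with TMM. With total counts the S24 median of 0.25 lies above the S34 median of -0.26.

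Cdkn2a, the gene whose locus drives the transgene, was at 0.141, 0.683 and 0 CPM after GCV and at 0.117, 0.179 and 0.156 CPM after VEH. Of these, S32 alone exceeded the limit of 3 counts, and the direction of the difference flips without S32 (log2 0.92 ± 1.30 SE, unadjusted p = 0.491). Counts at its 3′ end do not separate the p16 and p19 transcripts and do not check the labels. Cdkn1a, the cell-cycle inhibitor p21, was at 17.3, 50.9 and 8.07 CPM and at 31.9, 17.5 and 13.9 CPM, highest in S32 and S24. Of 28 p53 targets and cell-cycle inhibitors and 36 cytokines and growth factors of the secretory phenotype, 0 had an unadjusted p under 0.05 in the 6 males, against 1.1% of all genes higher and 0.814% lower. S32 or S24 held the highest value in 19 of the former and 28 of the latter, as S32 did in 3672 and S24 in 1055 of 11710 genes.

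The male difference was set against that of the female p16-3MR livers by a test of the difference between them, over the same 12 livers. No gene was called at an adjusted p under 0.05 (0%) with edgeR, 822 (3.78%) had an unadjusted p under 0.05, and DESeq2 called 3. Slc22a26 had a log2 difference of -0.39 in females and 4.16 between the sexes (unadjusted p = 0.00067, edgeR adjusted p = 0.976). Rgs16 had 0.73 in females (unadjusted p = 0.00144 between the sexes, edgeR adjusted p = 0.976), and Ulk1 had 0.77 (unadjusted p = 0.00156 between the sexes, edgeR adjusted p = 0.976). Cidec had 5.83 in females, where it was at 0 to 2.12 CPM (unadjusted p = 0.000488 between the sexes, edgeR adjusted p = 0.976). Gpat3 had -0.94 in females (unadjusted p = 0.00339 between the sexes, edgeR adjusted p = 0.976). Mt1 and Orm3 were also higher in females after GCV, by log2 2.58 (unadjusted p = 0.0439) and 2.92 (unadjusted p = 0.0171). Of the 26 acute-phase genes, 2 were higher and 0 lower at an unadjusted p under 0.05 in females, against 5.05% and 2.32% of all genes, and 0 were apart between the female arms. Apcs had a log2 difference of 0.02 in females (unadjusted p = 0.0608 between the sexes, edgeR adjusted p = 0.976). The difference between the sexes had an unadjusted p = 0.625 for Mt1 and an unadjusted p = 0.539 for Orm3, with an edgeR adjusted p of 1 for both. Of the 39 male-biased genes, 0 had an unadjusted p under 0.05 for that difference, and Hsd3b5, Slco1a1 and Cyp4a12a were at 0 to 0.434 CPM in the female livers.

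Wild-type males without the transgene, of batch 2 and injected from 6 months of age for 3 months, were fitted apart. Their genotype, age and batch cannot be told apart when they are set beside the p16-3MR males. In their table edgeR called 0 of 12643 genes (0%) between GCV and VEH, with 640 at an unadjusted p under 0.05 and 1 called by DESeq2. Their CPM values were scaled within that table. Hsd3b5 was at 221, 216 and 153 CPM after GCV and at 191, 199 and 193 CPM after VEH, and Mup20 was at 14805 to 18276 CPM in all 6. Each wild-type liver therefore held more Hsd3b5 and Mup20 than any p16-3MR male, on scales set separately. Slc22a26 was at 0.314, 0.205 and 6.41 CPM and at 0.532, 0.219 and 0.774 CPM, with a single liver above 1 CPM. Lcn2 was at 113, 1.64 and 94.6 CPM and at 220, 5.46 and 4.84 CPM, with a high and a low liver in each arm.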

How the data were processed

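Liver RNA was sequenced with Smart-3SEQ. Per the submitters' processing notes and the methods, the authors used FastQC 0.11.9, Trim Galore 0.6.10, Salmon 1.10.3 and mm10, summed transcripts to genes with tximport and dropped genes under 3 reads. The deposited values are estimated counts (expected counts), rounded and not scaled. The main analysis of counts was run in R 4.3.3 with edgeR 4.0.16 (TMM factors, quasi-likelihood test, 1 mean per sex and treatment over 12 p16-3MR livers, Benjamini-Hochberg adjustment over 21755 genes). Log2 CPM used a prior count of 2. GENCODE symbols matched 21698 gene IDs and 10496 of 12643 wild-type labels. Alternatives were DESeq2 1.42.0, its size factors, limma-voom 3.58.1 with sample quality weights, filterByExpr, males only, a replicate block in wild-type males and each male liver left out. Total-count scaling and further livers left out were added after seeing the data. Named genes were Cdkn2a, the 12 lowest p in each direction without overlap and with a mean of at least 10 counts, with and without S32 and S24, DESeq2 calls, the 12 genes highest in both S32 and S24, the 8 highest in either, and up to 4 abundant members of each of 43 lists. Genes outside this rule, such as Orm2, Saa1, Slco1a1 and Stat5b, are list members chosen after their values were seen. Members and lists were chosen with earlier results of these data known.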

Additional observations from a re-analysis of the deposited data

How the results depend on the processing

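With S32 and S24 kept, DESeq2 called 5 genes and limma-voom with sample quality weights 145, against 0 by edgeR. Leaving out each male liver in turn gave 0 to 1 calls (Slc22a26 without S32, and a gene model without S24). Without S32 and S24, where edgeR called 4, DESeq2 called 15, limma-voom 2, filterByExpr 0, a fit of the 4 remaining males alone 608 and total-count scaling, chosen after seeing the data, 16. The fit of 4 males has its own estimate of the spread, a biological coefficient of variation of 36.6% against 46.7% with the females. Leaving out each remaining male gave 0 (without S30) to 8 (without S34) calls. For the difference between the sexes DESeq2 called 3. In wild-type males the replicate block gave 68 calls and DESeq2 1, and leaving out each liver gave 0 to 46. Same-numbered wild-type males correlated at 0.11, 0.158 and -0.018 in their deviations from the group means, across genes. Males with different numbers were not compared, so whether the numbers mark a pairing was not tested. In p16-3MR males no paired analysis was possible because the groups share no replicate numbers. The log2 difference of Cdkn2a, 0.92, was -0.22 with limma-voom, -0.93 without S32 and S24, and -0.81 to 1.40 with each liver left out. For 63 genes, Cdkn2a and those described or chosen for their difference between treatments, 880 values under 14 settings were compared. Many were chosen for arms without overlap, an order that leaving livers out keeps, so their direction could hardly turn. Of the 880 values, 3 turned direction, all of Cdkn2a, 25 became called and the other 852 stayed uncalled, as in the main fit. The 28 genes singled out for S32 or S24, Col1a1 among them, are not in that count, and 24 of them turned direction with 1 or another male liver left out and 12 without S32 and S24. Named members of the lists outside these sets were not counted. Causes were not tested. Counts of 3 or fewer per liver limit genes under about 0.6 CPM.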

Other observations

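Immunoglobulin genes did not follow the order of the other immune genes. B lineage and immunoglobulin markers summed to 563, 224 and 1415 CPM in S30, S32 and S34 and to 459, 342 and 362 CPM in S24, S25 and S26, so that S32, the highest liver in Kupffer and neutrophil markers, was the lowest here. Ighm, the heavy chain of IgM, was at 51.9, 19.8 and 512 CPM and at 115, 43.4 and 78.8 CPM, with S34 above all others. Igha, the heavy chain of IgA, was at 71.7 CPM in S30 and 27.8 CPM in S24 against 1.37 to 5.89 CPM elsewhere. Jchain, which links IgM and IgA, was at 23.4, 1.07 and 30 CPM and at 10.2, 4.64 and 4.22 CPM. Of 22 listed genes, 1 was higher at an unadjusted p under 0.05 in the 6 males (1.1% of all genes) and 5 without S32 and S24 (2.65% of all genes). The list's median log2 difference was 1.44 without S32 and S24. With S30 also left out it was 1.84, with S34 the only GCV liver.

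Clock genes varied among the livers, and the time of day of collection is not in the labels used here. Dbp, a clock output factor, was at 3.24, 5.46 and 42.3 CPM after GCV and at 12.5, 2.32 and 0.625 CPM after VEH. Clock was at 25.4, 23.7 and 19 CPM and at 17.5, 44.8 and 66.4 CPM (log2 -0.92 ± 0.41 SE, unadjusted p = 0.041). S34 held the most Dbp, and S25 and S26 held the most Clock. Of 21 clock genes, 1, Clock, was lower and 0 higher at an unadjusted p under 0.05 in the 6 males (0.814% and 1.1% of all genes). Without S32 and S24, 3 were higher (Bhlhe41, Ciart and Dbp) and 1 lower (2.65% and 0.915% of all genes), with a median log2 difference of 0.28. With S30 also left out the median was 0.57, with S34 the only GCV liver.

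Krt19, a keratin of bile duct cells, was at 16.9 CPM in S34 and 0.156 to 0.714 CPM in the other 5 males, and Epcam, a surface protein of the same cells, at 5.95 CPM in S34 and 0.625 to 1.66 CPM elsewhere. The 12 cholangiocyte markers, 7 of them with a mean of at least 10 counts, summed to 246, 235 and 232 CPM after GCV and to 179, 145 and 131 CPM after VEH with TMM. By gene, 1 of the 12, Epcam, was higher in all GCV livers than in all VEH livers and 0 were lower, against 3.57% and 2.83% of all genes. With total counts 0 were higher and 1 was lower, against 2.03% and 3.48%, so by gene the order of the arms depended on the scaling.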
